A study of Mus musculus with 6 samples.

Results

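The GIMAP genes (GTPases of immunity-associated proteins) were followed in LSK cells of mice labelled Gfi1 knockout and of wild-type mice. Members were all probe sets outside the AFFX controls whose platform annotation gave exactly 1 gene symbol, that symbol being Gimap1, Gimap3, Gimap4, Gimap5, Gimap6, Gimap7, Gimap8 or Gimap9. This found 6 probe sets of 20380 with 1 symbol, and they covered 5 of the 8 genes, out of 12393 genes measured in all. Gimap4 had 2 probe sets and Gimap1, Gimap3, Gimap6 and Gimap7 had 1 each, while no probe set of the annotation carried the name of Gimap5, Gimap8 or Gimap9, whose transcripts were not analysed here. The family was chosen by the difference between the knockout and wild-type signals of these same arrays, so every difference between the groups given for a member is a description that supports nothing further.

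GIMAP proteins are small GTPases with a guanine nucleotide binding domain of the AIG1 type, and in mammals their genes lie side by side in a single cluster. They are best known from lymphocytes, where loss of Gimap1 or Gimap5 in mice depletes mature T and B cells, and loss of Gimap5 also disturbs blood stem cells. Several members sit on intracellular membranes and have been linked to survival, to calcium handling and to autophagy.

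Each group held 3 samples, numbered 5, 7 and 8 in the labels, and each sample was hybridised to 1 single-colour Affymetrix array after 2 rounds of amplification from 10 ng of RNA. LSK cells are the bone marrow fraction without lineage markers and with Sca-1 and Kit on the surface, sorted here by flow cytometry and rich in stem cells and early progenitors. One group was Gfi1 knockout and the other wild type for Gfi1, a zinc finger repressor of transcription. The labels used here give no strain, age or design of the knockout allele and do not say whether a sample was 1 mouse or a pool, so errors measure the spread between these samples.

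The 6 arrays had median signals of 286 to 335, in MAS5 units scaled by the authors. The brightest of 27 probe sets for Bacillus transcripts, which mouse RNA lacks, gave a control level of 100.2 to 162 for each array. The Gfi1 probe set read 692, 1163 and 1737 on knockout arrays 5, 7 and 8 and 632, 608 and 723 on wild-type arrays 5, 7 and 8. The targeted transcript was therefore not lower on the arrays labelled knockout, and where the probe set lies relative to the deletion is not given in the labels, so the group is called knockout-labelled. Kit, a surface marker of the sort, read 3512 to 4669 on the knockout-labelled and 5871 to 7774 on the wild-type arrays, and the progenitor marker Cd34 read 13294 to 18188 and 15603 to 20461. The T cell marker Cd3e exceeded the control level on 1 array of each group, and Cd4 and Cd8b1 on none. Of 24 measured T and NK cell markers, these last 2 were the only ones at or below it on every array. Others, such as Nkg7 and Zap70, exceeded it on all 3 arrays of each group.

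RefSeq promoter windows (build GRCm38.p6) were given for all 8 genes, each 300 bases long from 250 before to 50 after a start site. Those of 3 members that were lower in the knockout-labelled arrays (Gimap6, Gimap7 and Gimap1) and of Gimap4, which was not, are shown so that they can be read beside the values. Capitals mark AAATCA, a longer form of the AATC core that Gfi1 binds, and ACTTCC, a site of Ets factors, on either strand (TGATTT and GGAAGT on the other strand). The windows lie at chr6:48708195-48708494 on the minus strand for Gimap6, and on the plus strand at chr6:48718371-48718670 for Gimap7, chr6:48738797-48739096 for Gimap1 and chr6:48684328-48684627 for Gimap4.
Gimap6: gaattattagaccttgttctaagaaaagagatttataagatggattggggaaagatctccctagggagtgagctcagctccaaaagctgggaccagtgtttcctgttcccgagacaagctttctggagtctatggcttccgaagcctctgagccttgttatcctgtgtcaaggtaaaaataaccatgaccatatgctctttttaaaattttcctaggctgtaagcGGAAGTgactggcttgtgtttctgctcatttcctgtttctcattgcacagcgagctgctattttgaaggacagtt
Gimap7: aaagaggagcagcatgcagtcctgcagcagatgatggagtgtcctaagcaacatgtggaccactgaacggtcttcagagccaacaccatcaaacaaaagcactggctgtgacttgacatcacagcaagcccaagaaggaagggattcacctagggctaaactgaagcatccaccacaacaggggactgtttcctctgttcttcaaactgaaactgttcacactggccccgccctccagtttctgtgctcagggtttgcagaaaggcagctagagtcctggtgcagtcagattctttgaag
Gimap1: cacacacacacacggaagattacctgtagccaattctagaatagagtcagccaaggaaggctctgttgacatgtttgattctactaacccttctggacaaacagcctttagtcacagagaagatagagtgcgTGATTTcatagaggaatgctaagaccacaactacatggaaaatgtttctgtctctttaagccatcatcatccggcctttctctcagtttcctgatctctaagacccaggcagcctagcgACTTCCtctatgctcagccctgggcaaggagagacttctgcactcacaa
Gimap4: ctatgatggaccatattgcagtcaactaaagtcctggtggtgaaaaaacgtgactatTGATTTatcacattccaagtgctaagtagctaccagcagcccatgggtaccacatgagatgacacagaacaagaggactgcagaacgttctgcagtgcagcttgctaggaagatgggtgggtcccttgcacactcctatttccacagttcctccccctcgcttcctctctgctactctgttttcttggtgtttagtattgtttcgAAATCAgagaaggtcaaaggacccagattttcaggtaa

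AAATCA occurred 2 times in the Gimap4 window and 1 time each in those of Gimap1 and Gimap3, and not in the windows of Gimap6, Gimap7, Gimap5, Gimap8 or Gimap9. Among all 32851 RefSeq windows, 14.0% held it and 1.87% held it 2 or more times. One Gimap4 match began 193 bases before the start site and the other lay just after it, and the Gimap1 match began 118 bases before. ACTTCC was found 1 time each for Gimap6 and Gimap1 and 2 times each for Gimap9 and Gimap5, against 23.8% of all windows with at least 1. The Gimap6 match began 25 bases before the start site. TGTGGT, a Runx site, occurred 1 time each for Gimap4, Gimap7 and Gimap1 (16.8% of all windows), and TATAAA 1 time for Gimap6 (13.6%). The short core AATC was in 7 of the 9 GIMAP windows, Gimap8 having 2 overlapping ones, and in 73.1% of all windows, and TGGGA, the Ikaros core, was in 5 of 9 and 61.6%. Of the E-box letters, CAGCTG was in 0 of 9 (16.3% of all windows) and CAGGTG in 1 of 9 (20.2%), that of Gimap9. The windows held few CpG pairs, 2 to 4 in all but that of Gimap9 with 8, where the median window of the table held 7. A match describes letters in these windows, and no binding was measured.

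The 6 probe sets split into a lower group and Gimap4. Gimap7, Gimap6, Gimap3 and Gimap1 were lower in the knockout-labelled than in the wild-type arrays, to between 0.355 and 0.533 of the wild-type mean signal. Gimap4 was not lower by either probe set. All 6 passed the filter on low signal, which kept the brightest 60% by their mean over all 6 arrays whatever the group. Each difference is knockout-labelled minus wild type in log2(signal + 16), and its standard error (SE) comes from limma's fit to all 13575 probe sets tested. Fewer cells of a type and less RNA per cell cannot be told apart in these bulk samples.

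Gimap6, which joins the autophagy machinery through a GABARAP-type protein, gave signals of 815 (sample 5), 661 (sample 7) and 773 (sample 8) in the knockout-labelled group. The wild-type samples of the same numbers gave 2111, 1689 and 1877. Every knockout-labelled array lay well below every wild-type array. Mean signal was 749 ± 79.6 in the knockout-labelled and 1892 ± 212 in the wild-type arrays (SD, n = 3 each), and the log2 difference was -1.32 ± 0.19 (SE). The samples of equal number differed by -1.36, -1.33 and -1.26, the narrowest range of any member.

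Gimap7, a GTPase that works as a dimer, read 319, 168 and 277 on knockout arrays 5, 7 and 8 and 838, 835 and 479 on wild-type arrays 5, 7 and 8. The groups did not overlap, although wild type 8 stood apart from the other wild-type arrays. The means were 255 ± 77.9 and 718 ± 206 (SD, n = 3 each) and the difference was -1.44 ± 0.30 (SE). Differences within the sample numbers ran from -2.21 for number 7 to -0.76 for number 8, so the size was far less even than for Gimap6. Knockout array 7, the lowest, was only slightly above its control level of 158.

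Gimap1, which mature T and B cells need to survive, read 699, 440 and 558 on the knockout-labelled and 1005, 1126 and 1055 on the wild-type arrays in the same order. The groups did not overlap, and the wild-type arrays were close to each other. Means of 566 ± 129 and 1062 ± 61.2 (SD, n = 3 each) gave a difference of -0.91 ± 0.22 (SE), with -0.51, -1.32 and -0.90 within numbers 5, 7 and 8.

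Gimap3, a mitochondrial outer membrane protein and close relative of Gimap5, read 156, 267 and 103 on the knockout-labelled and 261, 448 and 437 on the wild-type arrays. These groups overlapped, since knockout 7 was above wild type 5. Knockout arrays 5 and 8 barely exceeded their own control levels of 154 and 100.2, so the low end of this probe set is near its bound. The means were 176 ± 83.8 and 382 ± 105 (SD, n = 3 each) and the difference was -1.11 ± 0.35 (SE). RefSeq lists Gimap5 among the older names of Gimap3, and whether the probe set also detects Gimap5 was not tested.

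Gimap4, which has been linked to the timing of T cell death, was measured by 2 probe sets made from the same transcript record. Whether either of them also detects other Gimap genes was not tested. The brighter read 1677, 1336 and 990 on knockout arrays 5, 7 and 8 and 1237, 1307 and 886 on wild-type arrays. The dimmer read 735, 959 and 780 on the knockout-labelled and 831, 752 and 454 on the wild-type arrays. In both the groups overlapped and wild type 8 was the lowest array. The differences were 0.21 ± 0.23 and 0.31 ± 0.25 (SE), and without wild type 8 they were 0.04 and 0.05. Without knockout 5 the first was 0.03 and the second 0.39.

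**Figure D1:**
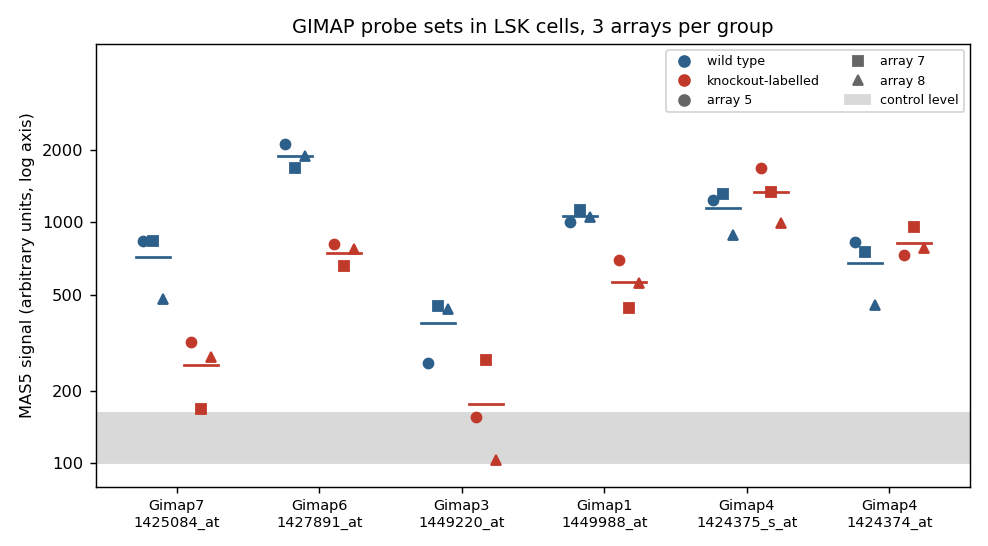
Signal of each GIMAP probe set on each array (log axis, arbitrary MAS5 units), wild type in blue and knockout-labelled in red, with marker shapes for sample numbers 5, 7 and 8, bars for the group means and a grey band for the range of control levels, 100.2 to 162. The red points lie below all blue points for Gimap7, Gimap6 and Gimap1, overlap them for Gimap3, and are mixed with them for both Gimap4 probe sets.

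In the fit to the whole table, 3 of the 6 member probe sets passed an adjusted p under 0.05 (Benjamini-Hochberg over all probe sets) with a lower signal, those of Gimap6, Gimap7 and Gimap1, and 0 with a higher one. Over all probe sets tested 2.19% were called lower and 1.44% higher. Blocking on the sample number raised these shares to 3.53% and 2.36% and left the same 3 members called. The groups did not overlap for these 3 probe sets, where 12.1% of all tested were lower without overlap. Gimap7 and Gimap6 were also at least 2-fold lower without overlap, as 1.60% of all were. Because this contrast had picked out the family, nothing is read from these shares. The median difference was -1.01 over the 6 member probe sets and -0.01 over all tested. Ranked from the most lowered, Gimap7, Gimap6, Gimap3 and Gimap1 stood at places 76, 103, 187 and 331 of 13575.

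The members also differed in how far their calls held under other settings and with 1 array left out. Gimap6 passed in all 16 alternative settings tried, and with 1 array left out its difference stayed between -1.40 and -1.23. Gimap7 passed in 10 of the 15 settings that tested it, and not when either of knockouts 7 and 8 or either of wild types 5 and 7 was left out. Gimap1 passed in 9 of 16, and with 1 array left out only without knockout 5. Gimap3 passed in 0 of 15. With 1 array left out the differences ranged from -1.70 to -1.18 for Gimap7 and from -1.07 to -0.75 for Gimap1. Lower calls over all probe sets fell in the same fits, from 297 to between 90 and 282. A lost call is therefore not by itself a sign that 1 array carried the difference. The 4 lowered probe sets stayed below 0 and both Gimap4 probe sets above 0 in every setting that tested them.

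**Figure D2:**
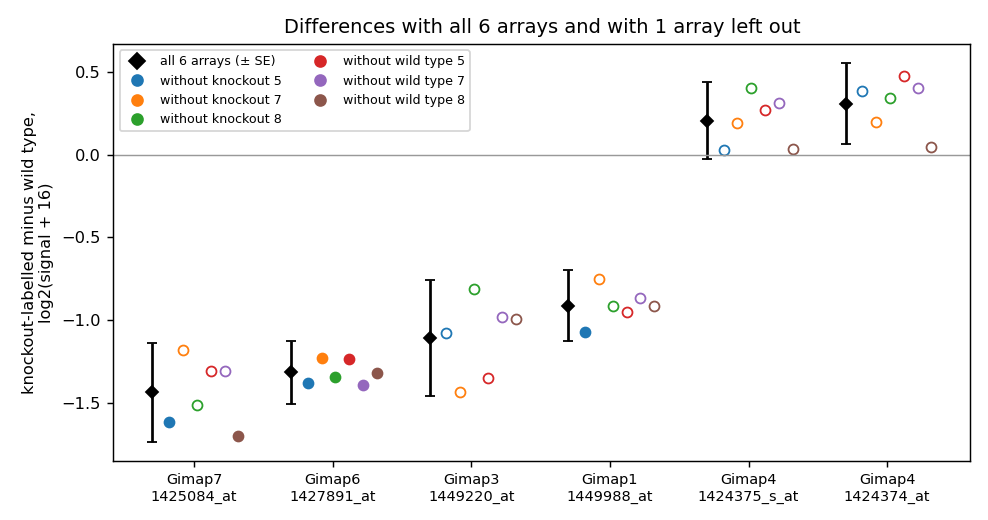
Difference between the groups on the log2(signal + 16) scale for each GIMAP probe set, with all 6 arrays (black diamonds, bars ± SE) and with each array left out in turn (circles, filled where the adjusted p was under 0.05). Gimap6 keeps filled circles between -1.40 and -1.23, Gimap7 and Gimap1 lose most of theirs, and Gimap4 stays at or above 0.03.

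Since a ratio of 2 probe sets within an array removes what that array's scaling does to both, each member was also set against the brighter Gimap4 probe set, with the wild-type mean of the log2 ratio put at 0. The ratio of Gimap6 to Gimap4 was -1.76, -1.73 and -1.08 on knockout arrays 5, 7 and 8 and between -0.37 and 0.34 on the wild-type arrays. For Gimap7 it was -1.65, -2.19 and -1.10 against -0.18 to 0.13, and for Gimap1 -1.16, -1.48 and -0.72 against -0.21 to 0.33. Neither of these overlapped. For Gimap3 the ratio was -1.74, -0.69 and -1.52 against -0.62 to 0.57, again without overlap, although the signals themselves overlapped. The dimmer Gimap4 probe set stood at -0.41, 0.29 and 0.43 against -0.18 to 0.20, so every knockout-labelled array lay outside the wild-type range, 1 below it and 2 above it. The 2 Gimap4 probe sets thus differed from each other by more than the gap that separates the groups for Gimap3. The ratios share 1 reference probe set, so they are not independent of each other. That reference is the member that was not lower in these same arrays. Its own difference of 0.21 is thus added to that of each lowered member. The share of all probe sets that would separate in such a ratio was not computed, so the lack of overlap supports nothing further.

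**Figure D3:**
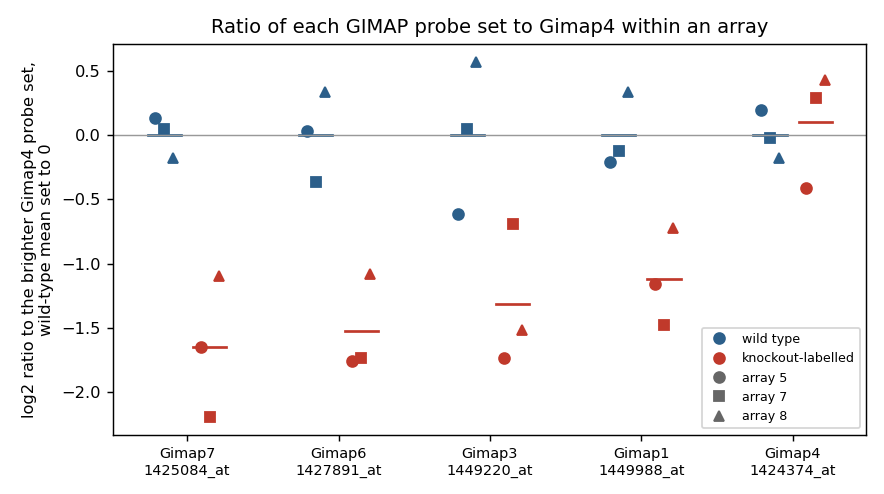
Log2 ratio of each GIMAP probe set to the brighter Gimap4 probe set within each array, with the wild-type mean at 0, wild type in blue, knockout-labelled in red and bars for group means. Red points lie between -2.19 and -0.69 for Gimap7, Gimap6, Gimap3 and Gimap1, and on both sides of 0, from -0.41 to 0.43, for the second Gimap4 probe set.

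The 8 Gimap genes are neighbours on chromosome 6, in the order Gimap8, Gimap9, Gimap4, Gimap6, Gimap7, Gimap1, Gimap5 and Gimap3, with no other protein-coding gene between them. Position had no part in choosing the members, so the 15 protein-coding genes on each side were compared in the same fit. Of these 30 neighbours 21 had a probe set and 13 were tested, and 0 were called in either direction by limma (0 lower and 2 higher at an unadjusted p under 0.05). By each gene's brightest probe set, 2.48% of all genes were called lower and 1.42% higher. The median difference of the 13 was 0.08, and 4 of them lay below 0. Among the 8 measured but too dim to be tested was Zfp467, a zinc finger gene 8 places before the cluster, named after its values were seen. It read 22.4, 34.2 and 185 on the knockout-labelled arrays, of which 1 exceeded its control level, and 270, 244 and 352 on the wild-type arrays, without overlap. The nearest measured gene before the cluster, Repin1, a zinc finger gene, stood at -0.24 ± 0.25 (SE). The nearest after it, Tmem176b, a membrane protein of immune cells, read 9625, 8542 and 10438 on the knockout-labelled and 10450, 8308 and 9497 on the wild-type arrays, a difference of 0.02 ± 0.15. Its partner Tmem176a stood at 0.29 ± 0.16 without overlap between the groups, and at 0.18 ± 0.20 by its dimmer probe set. In chromosome order the 4 genes with lower signals thus stood between Gimap4 at 0.21 and Tmem176b at 0.02, with Gimap5 between them not analysed here. The sign of Tmem176b changed with cyclic loess normalization and without knockout 8 or wild type 7. The 2 neighbours with an unadjusted p under 0.05 were Lrrc61 at 0.45 ± 0.19 and Igf2bp3 at 1.06 ± 0.49 (limma adjusted p = 0.210 and 0.251), named after their values were seen. Igf2bp3 read 190 on wild type 8 against 1134 and 870 on wild types 5 and 7, and its difference without wild type 8 was 0.30.

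**Figure D4:**
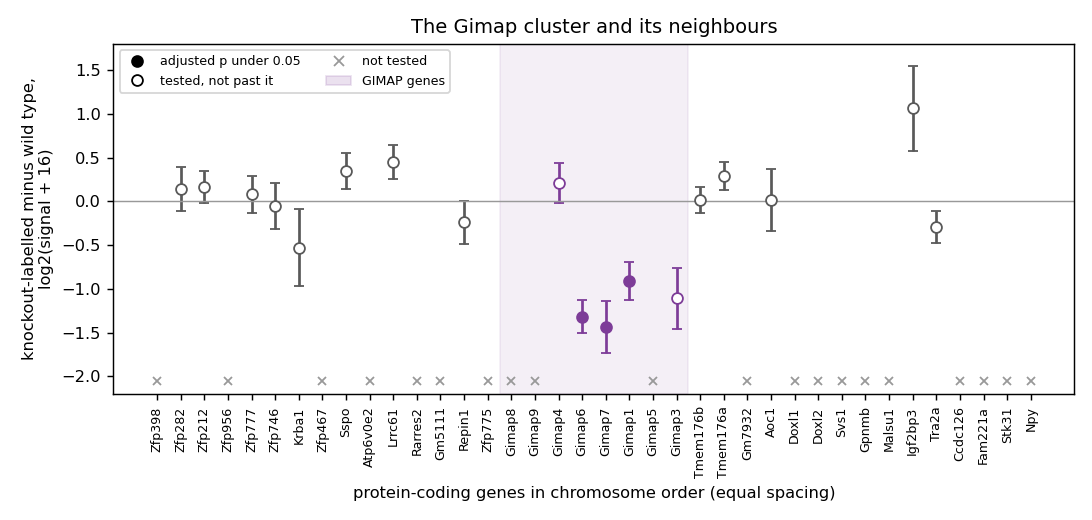
Difference between the groups (log2(signal + 16), ± SE) for the brightest tested probe set of the Gimap genes (purple) and of 15 protein-coding genes on each side (grey), in chromosome order with equal spacing. Filled circles passed an adjusted p under 0.05, crosses mark genes not tested, and of the tested genes Gimap6, Gimap7 and Gimap1 are filled.

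GIMAP transcripts are abundant in lymphocytes, so genes of early lymphoid cells were set beside them. Of 22 early lymphoid genes 13 were tested, 7 were called lower (Il7r, Flt3, Satb1, Dntt, Ccr9, Notch1 and Rhoh) and 0 higher, and all 13 lay below 0, with a median of -0.91 where all genes had -0.01. Leaving out knockout 7 or wild type 5 gave 4 lower calls, and leaving out knockout 8 or wild type 7 gave 3. Over all genes 2.48% were called lower and 1.42% higher. Ccr9 exceeded the control level on only 1 knockout-labelled array. Of 11 tested LSK and stem cell markers 3 were called lower (Hlf, Flt3 and Kit) and 0 higher, with a median of -0.36, and 1 was called higher without wild type 5. The early lymphoid list was chosen with these data known, so its direction is not independent of them. Among 11 tested lymphoid transcription factors 1 was called lower, Ets1, a factor of T, B and NK cell development, and 9 lay below 0, with a median of -0.46. The blocked fit called 2. Ets1 read 265, 335 and 349 on knockout arrays 5, 7 and 8 and 809, 736 and 677 on wild-type arrays, without overlap, a difference of -1.19 ± 0.22 (SE) with a limma adjusted p of 0.0120. That call was lost without wild type 7 (limma adjusted p = 0.0553).

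Among the listed markers of mature lymphocytes 1 was called, lower, while antigen receptor genes outside the lists were called in both directions. Of 28 T and NK cell markers 10 were tested, 1 was called lower and 0 higher, 5 lay below 0 and the median was -0.06, which was above 0 without knockout 8, wild type 5 or wild type 7. Of all genes tested 2.48% were called lower. The one called was Klrd1, a receptor chain of NK cells, with signals of 214, 218 and 233 on the knockout-labelled and 534, 1103 and 395 on the wild-type arrays. Its difference was -1.41 ± 0.33 (SE, limma adjusted p = 0.0312), and it was not called when any knockout-labelled array or wild type 7 was left out. Thy1 lay higher by 0.82 ± 0.24 (limma adjusted p = 0.0785, and 0.0431 in the blocked fit). Before adjustment, limma's p was under 0.05 also for Lat and Cd5, lower, and for Nkg7, higher. They stood at -0.59 ± 0.19, -0.73 ± 0.28 and 0.50 ± 0.17 (SE), each without overlap between the groups. The median thus holds movements in both directions. The summed signal of the measured T and NK markers was 8559 to 10053 on the knockout-labelled and 8330 to 9737 on the wild-type arrays, so the groups overlapped. Of 20 B and plasma cell markers 11 were tested, 0 were called in limma, 9 lay below 0 and the median was -0.27. Before adjustment, p was under 0.05 for 3 of them on the lower and 1 on the higher side. The blocked fit called 2 of these lower, and leaving out wild type 8 gave 3. Cd79a, a chain of the B cell receptor, stood at -0.05 ± 0.28.

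The 2 lists hold no genes of the rearranging immunoglobulin or T cell receptor loci, and the following were named after their values were seen. Of 18 immunoglobulin probe sets tested 7 were called higher and 0 lower, those of Igha (3 of 3), Ighm (2 of 6), Ighg3 and Iglv1. Over all probe sets tested 1.44% were called higher and 2.19% lower. Ighg3, a heavy chain of class-switched B and plasma cells, read 2380, 711 and 1348 on the knockout-labelled and 189, 74.7 and 178 on the wild-type arrays, a difference of 3.12 ± 0.40 (SE, limma adjusted p = 0.00115). Igha, the IgA heavy chain, read 60974, 11539 and 22521 against 2775, 6418 and 5394 by its brightest probe set, a difference of 2.45 ± 0.45 (limma adjusted p = 0.00991) that was not called without knockout 8. The brightest Ighm probe set stood at -0.16 ± 0.17 with overlap, and the called ones at 1.56 ± 0.24 and 2.35 ± 0.45, the latter not called without knockout 5 or knockout 8. Iglv1 stood at 1.31 ± 0.32 and was called in 2 of the 6 fits with 1 array left out, those without knockout 7 and without wild type 8. On the T and NK cell side, Cd96, a receptor of those cells, read 372, 293 and 334 on the knockout-labelled and 1039, 1105 and 762 on the wild-type arrays, a difference of -1.49 ± 0.23 (limma adjusted p = 0.00309). Trbv1, a T cell receptor segment, stood at -1.76 ± 0.42 and was called in 2 of those 6 fits, without knockout 5 and without wild type 8. Other tested T cell receptor segments, Trav9d-3 and Trbv13-2, stood at -0.11 ± 0.26 and -0.12 ± 0.29. Neither was called, and both overlapped between the groups. The receptor genes named here are those of probe sets with exactly 1 gene symbol. Antigen receptor probe sets with several symbols or none are not covered. The part of these genes in the GIMAP values was not tested.

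Myeloid markers moved in the same arrays, in both directions. Over all genes 2.48% were called lower and 1.42% higher. Of 10 tested neutrophil markers 5 were called lower and 1 higher (median -1.42), with a summed signal of 7461 to 15175 on the knockout-labelled and 20932 to 42603 on the wild-type arrays. Leaving out any one of knockouts 7 and 8 and wild types 5 and 7 gave 3 lower calls. Of 12 monocyte and macrophage markers 4 were called higher and 0 lower (median 0.52), with sums of 22933 to 23229 against 12862 to 15853, and 2 were called without knockout 5 or without knockout 8. Their part in the GIMAP values was not tested. Dendritic cell and erythroid markers had medians of -0.42 and -0.28, with 2 of 10 and 1 of 9 called lower. The dendritic calls were Flt3 and Ccr9, which the early lymphoid list also holds, and leaving out any array but wild type 8 gave 1 call. The erythroid call was Car2, with a mean signal of 4224 on the knockout-labelled and 14028 on the wild-type arrays, and 2 were called without wild type 5. Summed erythroid signals were 12567 to 13197 on the knockout-labelled and 21847 to 28848 on the wild-type arrays. Car2 makes up much of the gap between these sums, and every other tested erythroid marker overlapped between the groups. Megakaryocyte and endothelial markers had 0 calls in limma among 6 and 7 tested (before adjustment, p was under 0.05 for 1 megakaryocyte gene, higher, and 1 endothelial gene, lower) and medians of 0.12 and 0.08, whose sign changed with single arrays left out.

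GIMAP proteins have been reported to bind BCL-2 family proteins, and loss of Gimap5 to lower MCL-1. Of 15 genes of the BCL-2 family with the chaperone Hspa8 11 were tested, 0 were called in limma, and 4 lay below 0, with a median of 0.13. Before adjustment, p was under 0.05 for 2 in each direction. Bcl2, the founding survival gene, stood at 0.13 ± 0.25 and Bcl2l1, which encodes BCL-XL, at 0.16 ± 0.19. Mcl1, a survival gene of stem cells and lymphocytes, stood at -0.38 ± 0.13 by its brightest probe set (limma adjusted p = 0.131), without overlap between the groups. Of the 6 tested Mcl1 probe sets 5 had no overlap, all lower, and 1 passed at -0.51 ± 0.13 (limma adjusted p = 0.0490). Bcl2l11, which encodes the killer BIM, stood at -0.55 ± 0.21 by its brightest probe set (limma adjusted p = 0.161). Its other tested probe sets stood at -0.24 ± 0.22 and -0.22 ± 0.26, both with overlap between the groups.

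Other immunity GTPases were taken from the GBP, IRG and Mx families, which interferon induces. Of 8 tested, all of them GBP or IRG genes, 3 were called lower (Gbp6, Iigp1 and Gbp8), 7 lay below 0 and the median was -0.84. Over all genes 2.48% were called lower. Gbp6 exceeded the control level on 0 of the 3 knockout-labelled arrays, so the size of its difference is only a bound. The blocked fit called 5, Igtp and Irgm2 being added, which without it stood at -0.90 ± 0.24 and -0.78 ± 0.21 (limma adjusted p = 0.0586 and 0.0603).

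**Figure D5:**
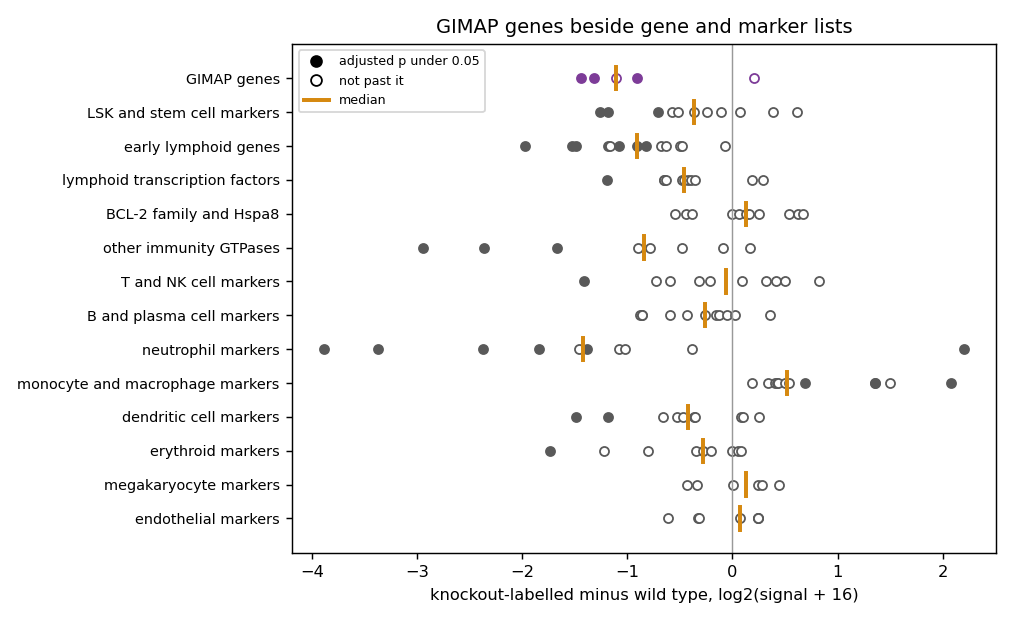
Difference between the groups (log2(signal + 16)) of each tested gene, by its brightest probe set, for the GIMAP genes (purple) and for 13 gene and marker lists (grey). Filled circles passed an adjusted p under 0.05 and orange ticks are medians, at -1.11 for the 5 GIMAP genes, -0.91 for the early lymphoid genes and -0.06 for the T and NK cell markers.

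The genes whose values over the 6 arrays were most like the mean GIMAP profile were ranked by the root mean square distance between log2 profiles, each centred on its own mean. The 8 nearest of the tested genes outside the family were Zup1, Parp6, Ttc3, Kdm6a, Zmynd8, Hs1bp3, Efcab14 and Tbcel, at distances of 0.08 to 0.11. The GIMAP genes themselves lay 0.15 (Gimap1), 0.27 (Gimap6), 0.40 (Gimap7), 0.45 (Gimap3) and 0.58 (Gimap4) from their own mean, which no single member followed closely. With Gimap6 alone as the reference, the nearest included Ldhb and Cd200 at 0.14 and 0.15, named after their values were seen, and 1 of the 8, Parp6, was on both lists. All of the 8 nearest to the mean profile were lower in the knockout-labelled arrays without overlap, so the measure includes the difference between the groups.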

How the data were processed

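Expression was measured on 6 single-colour Affymetrix arrays. The deposited values are probe set signals on a linear intensity scale, made by the authors with MAS5 per the submitters' processing notes; the version is not given in the sources used here. A trimmed mean near 1000 on every array (1000.33 to 1000.37) shows a common scaling. Of 22626 probe sets outside the AFFX controls, 20380 had 1 gene symbol, 691 several and 1555 none. The 60% with the highest mean log2(signal + 16) were tested with limma 3.58.1 in R 4.3.3 (eBayes with trend, two-sided, Benjamini-Hochberg over 13575 probe sets, threshold 0.05). A gene was represented by its brightest tested probe set. On simulated data for this comparison, 34.0% of 100 probe sets changed by 1 on the log2 scale were recovered among 13575. Of 95 changed by 2 in the same run, 87.4% were recovered. Over both sizes together 5.65% of calls were false. The changed probe sets were drawn from the brighter ones, and the simulated noise was independent between arrays. Same-numbered samples deviated together (r = 0.159, 0.168 and 0.238 over probe sets, against -0.134 to -0.0307 for different numbers). Deviations were taken from each group's own mean, so positive values for equal numbers by themselves draw the others below 0. These values therefore do not settle whether the samples were paired. The reported errors and p-values are from the fit without pairing, and the fit with the sample number as a block is given where it changed a call. Precision is limited by having 3 arrays per group.

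The members and all gene lists were chosen with earlier results of these data known. Named genes were all members, Gfi1, neighbours past the threshold and the nearest measured on each side, from each list up to 4 genes with the smallest p and 2 more with the highest signal, the 8 genes nearest the mean GIMAP profile, and a fixed set of sort, lymphoid and BCL-2 family genes; others are marked where named. Alternatives were other pseudocounts, filters, normalizations and variance models, the sample number as a block, and each array left out. The filter on the mean of log2 values was preferred after one on the mean signal had been run, and the latter is kept as an alternative chosen after seeing the data. Protein sequences were not used here.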

Additional observations from a re-analysis of the deposited data

How the results depend on the processing

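Without the filter on low signal, 1 GIMAP probe set was called lower in place of 3, with 119 lower and 69 higher over all probe sets and 11 lower and 3 higher among the listed genes. With eBayes without trend, 124 were lower and 57 higher over all and 12 listed genes were lower. In the replicate block fit, which uses the sample number as a block, 479 were lower and 320 higher, and the GIMAP count remained 3. With 1 array left out, GIMAP calls ranged from 1 to 3, lower calls over all from 90 to 282, higher calls from 34 to 266, listed genes lower from 10 to 26 and higher from 3 to 5. Leaving out either knockout 7 or 8, or either wild type 5 or 7, gave a GIMAP count of 1. The cause was not tested. With Gimap6 alone as the reference, 1 of the 8 nearest genes was shared. The filter on mean signal, chosen after seeing the data, gave 292 lower and 197 higher and 3 GIMAP calls. The neighbours gave 0 calls in limma under every alternative run, with 2 at an unadjusted p under 0.05 in the fit as reported. Signals near the control level, as for Gimap3, limit the lower end.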
